A study of Sus scrofa with 12 samples.

Results

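The genes described here are 10 genes of myostatin and activin signalling. They are the ligand MSTN, the follistatin and follistatin-like genes FST, FSTL1 and FSTL3, and the receptors ACVR1, ACVR2A, ACVR2B and ACVR1B. The signal carriers SMAD2 and SMAD3 complete the list. The 10 were chosen by name, as rows of the gene count matrix whose Ensembl gene ID carries one of these symbols in the pig. All 10 had an ID and counts, out of 25880 genes listed and 20341 with at least 1 count, and all 10 were among the 14262 genes with enough counts to be tested. The counts came from Semimembranosus muscle, a muscle of the ham, of 12 purebred Italian Large White pigs, 6 with high intramuscular fat (high IMF, pigs 1 to 6) and 6 with low intramuscular fat (low IMF, pigs 7 to 12). The comparison asks which genes differ in level between muscles that stored more or less fat between their fibres. Each group was labelled as 3 gilts and 3 barrows (castrated males), the pigs were 229 to 249 days old with live weights of 150 to 160 kg, and all of them shared the same housing and diet and received no treatment. Each library was 1 pig and each pig was sampled once, in the slaughterhouse, from whole muscle, so fat cells, vessels and connective tissue were sequenced together with the fibres.

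Myostatin is a secreted protein of the transforming growth factor beta family, made mainly by muscle fibres, and is best known for limiting muscle mass: animals that lack it carry heavier muscles and less fat. Myostatin and the activins bind a type II receptor, which recruits and switches on a type I receptor, and that receptor phosphorylates SMAD2 and SMAD3, which enter the nucleus with SMAD4 and change transcription. Follistatin and FSTL3 hold the ligands in the extracellular space and keep them from the receptors.

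No member differed between the groups by the study's thresholds, which ask for an adjusted p of 0.05 or less and a log2 fold change (log2FC, low IMF relative to high IMF) of 0.58 or more in either direction. By the edgeR quasi-likelihood test 0 of the 10 members were called, and of all 14262 genes tested 0 were called (0%). At an unadjusted p at or under 0.05, 1 member passed, SMAD3, which is 10% of the members against 10.4% of all genes (767 higher in low IMF and 719 higher in high IMF). With DESeq2's Wald test over all genes with a count, 0 members were called, against 64 of 13967 genes left with an adjusted p (0.458%). No member had groups without overlap in CPM (counts scaled for library size, by the TMM method), against 94 genes (0.659%). The member log2FC values ran from -0.28 for MSTN to 0.44 for SMAD3 with a median of -0.04, beside a median of -0.01 over all genes. Of the 10 estimates 3 were above 0 and 7 below, and the adjusted p-values of edgeR ran from 0.452 to 0.997. These values leave SMAD3 as the member with the largest estimated difference and MSTN as the next by size.

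Libraries held 131048805 to 178013997 counts, so that even the least counted member, FST, had 149 to 363 counts per pig. The common biological coefficient of variation was 0.332. Counts of the Y chromosome genes EIF1AY and KDM5D went against the labelled sex in 6 of 12 pigs (pigs 3 and 5 of the high IMF group and 7, 8, 9 and 10 of the low IMF group), with no pig between 6 and 3734 such counts. The IMF group has no marker that is present or absent in this way. The adipocyte markers given below bear on the IMF group without settling it. Whether the sex labels or the match of libraries to pigs, made by the pig number in both names, are at fault was not tested, and the group comparisons rest on that match. Which pigs shared a slaughter day or a sequencing lane is not given in the sources used here, and the part of either was not tested. The summed CPM of 6 adipocyte markers was 150 to 280 (median 198) in high IMF and 115 to 339 (median 238) in low IMF pigs. This sum did not separate the groups (exact two-sided permutation test, p = 0.721). The marker LPL made up most of it in every pig, with 184.9 of 211.7 CPM in pig 7 and 130.6 of 248.8 CPM in pig 6. The marker ADIPOQ alone was 19.9 to 78.3 CPM in high IMF and 8.4 to 76.9 CPM in low IMF pigs, and also overlapped. How much of the LPL came from fat cells was not tested. Muscle fibre markers were abundant in all 12 pigs, with a summed CPM of 31578 to 61149 over the 4 of 10 listed markers that had an ID. In whole muscle, fewer cells of a type and less RNA per cell cannot be told apart.

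**Figure D1:**
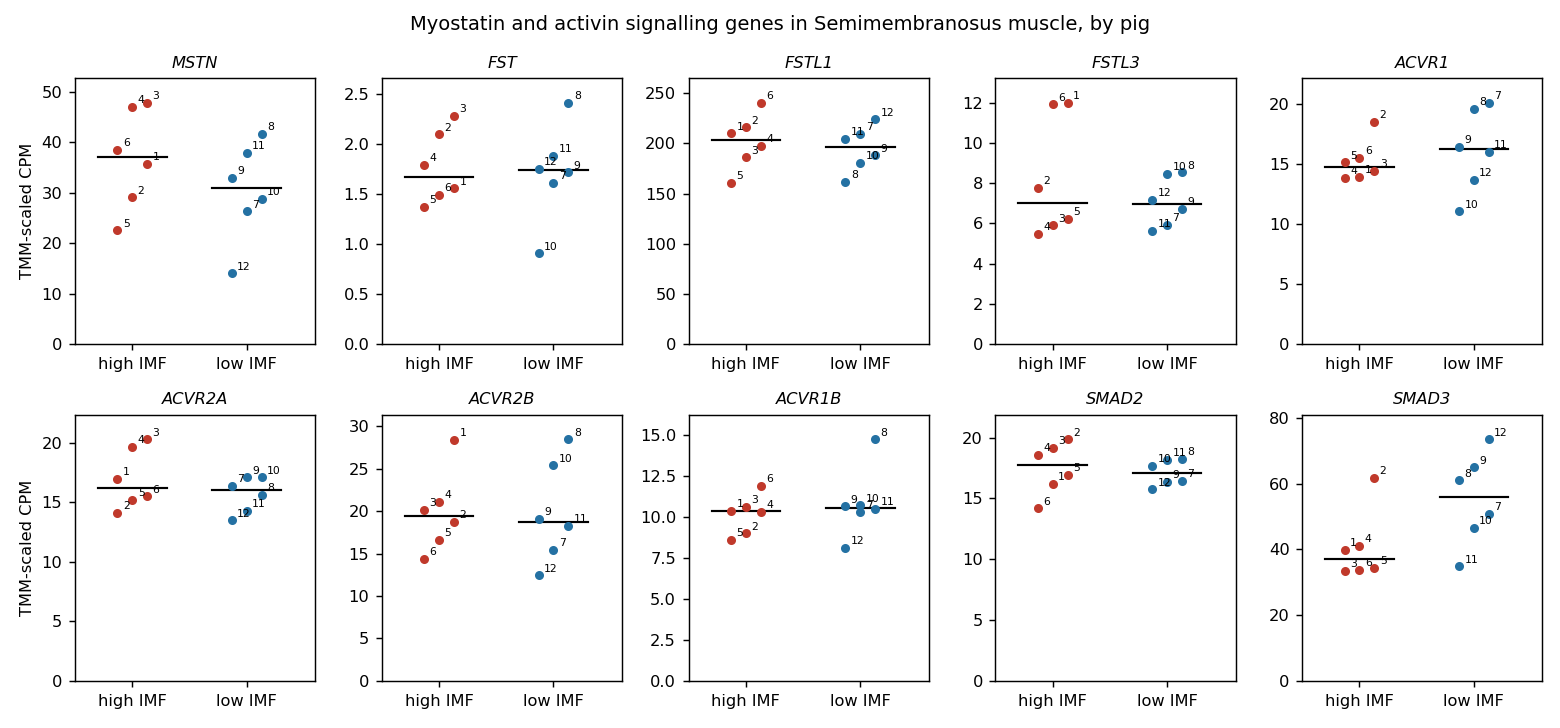
TMM-scaled CPM (vertical axis) of the 10 members in each of the 12 pigs, with the high IMF group in red on the left and the low IMF group in blue on the right of each panel. Points are pigs with their numbers and black lines are group medians. The groups overlap in every panel, and SMAD3 shows the low IMF median (56.0 CPM) above 5 of the 6 high IMF pigs.

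MSTN (ENSSSCG00000016047, chr15:94623526-94628440, minus strand, build Sscrofa11.1) encodes myostatin, the ligand. Its lowest, median and highest values were 22.6, 37.1 and 47.8 CPM in high IMF pigs and 14.0, 30.8 and 41.6 CPM in low IMF pigs. The lowest level of all was in low IMF pig 12 and the 2 highest in high IMF pigs 3 and 4, with most pigs of both groups between them. The log2FC was -0.28 (SE 0.24, 95% interval -0.80 to 0.24, n = 6 per group, edgeR adjusted p = 0.712), and an exact two-sided permutation test over the 924 divisions of the pigs gave p = 0.323. The smallest p this exact test can give is 0.00216. The estimate leaned on pig 12, without which it was -0.12.

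MSTN had the widest spread of the members between pigs of the same group. Its within-group SD was 0.49 on the log2 CPM scale, higher than in 91.2% of the 500 tested genes of the nearest mean level, and the highest pig had 3.41 times the CPM of the lowest. The SD was 0.42 in high IMF and 0.56 in low IMF pigs. ACVR2B (SD 0.39, percentile 86.4), SMAD3 (SD 0.36, percentile 84.2) and FSTL3 (SD 0.40, percentile 81.4) also lay in the upper part of their level class. SMAD2 was among the most even genes of its level, with an SD of 0.14 at percentile 12.6. The remaining members lay between percentiles 28.6 (FSTL1) and 56.6 (ACVR1). These percentiles describe the 12 libraries and carry no test.

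**Figure D2:**
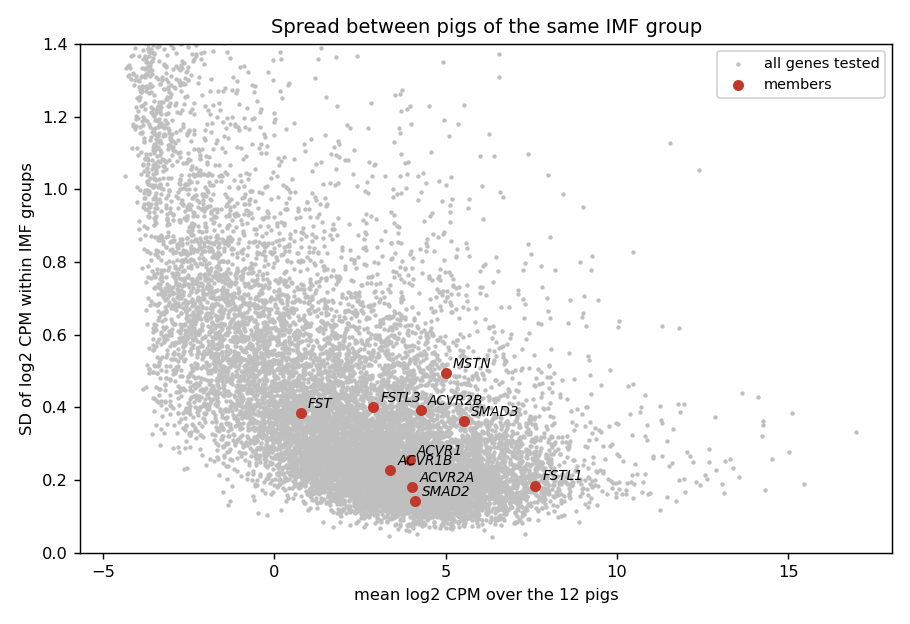
SD of log2 CPM between pigs of the same IMF group (vertical axis) against the mean log2 CPM over the 12 pigs (horizontal axis). Grey points are all genes tested, of which 459 lie above the axis limit of 1.4 and are not drawn, and red points are the members. MSTN stands high for its level at an SD of 0.49, and SMAD2 low at 0.14.

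The 3 follistatin and follistatin-like genes differed far more from each other than between the groups. FST (ENSSSCG00000016892, chr16:32806341-32811382, plus strand) encodes follistatin, which wraps activins and myostatin. Its lowest, median and highest values were 1.38, 1.68 and 2.29 CPM in high IMF and 0.912, 1.74 and 2.42 CPM in low IMF pigs. Both extremes, pig 10 and pig 8, were low IMF pigs, and the high IMF pigs lay within their range. The log2FC was -0.04 (SE 0.21, 95% interval -0.50 to 0.42, edgeR adjusted p = 0.966, exact permutation p = 0.771).

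FSTL1 (ENSSSCG00000039426, chr13:139847246-139901972, plus strand) encodes a secreted glycoprotein with a follistatin-like domain that is abundant in connective tissue. Levels were 161, 204 and 241 CPM (lowest, median, highest) in high IMF and 162, 196 and 224 CPM in low IMF pigs. The ranges lay almost on top of each other. The log2FC was -0.05 (SE 0.11, 95% interval -0.29 to 0.19, edgeR adjusted p = 0.908, exact permutation p = 0.652). With group means removed, FSTL1 varied over the 12 pigs with the summed level of 5 stromal markers, a list that includes collagen genes (Pearson r = 0.80), and with that of 5 macrophage markers (r = 0.70). The stromal sum was 851 to 1920 CPM in high IMF and 1399 to 2383 CPM in low IMF pigs. The collagen gene COL3A1 made up most of this sum in every pig, with 684.6 of 850.8 CPM in pig 5 and 1739.2 of 2287.7 CPM in pig 12. The sum is therefore mainly a collagen level. PDGFRA, another marker of the list, was 20.6 to 41.9 CPM in high IMF and 15.99 to 21.2 CPM in low IMF pigs. The part of the stromal sum in the level of FSTL1 was not tested.

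FSTL3 (ENSSSCG00000037102, chr2:77656655-77662608, minus strand) encodes a follistatin-like inhibitor of activins and myostatin whose transcription is known to rise with activin and transforming growth factor beta signalling. Its values were 5.49, 7.00 and 12.0 CPM in high IMF and 5.62, 6.95 and 8.54 CPM in low IMF pigs. Pigs 1 and 6 of the high IMF group, at 12.0 and 11.9 CPM, stood above all other pigs, while the medians of the groups nearly coincided. The log2FC was -0.22 (SE 0.21, 95% interval -0.68 to 0.24, edgeR adjusted p = 0.754, exact permutation p = 0.50). It was -0.08 without pig 1 and likewise without pig 6.

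Since FSTL3 is a target as well as an inhibitor of the pathway, the 250 bases before its RefSeq start are shown, with the SMAD-binding letters CAGAC (read on both strands, so also GTCTG) in capitals. The window is chr2:77662609-77662858 of Sscrofa11.1, read on the minus strand.

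FSTL3: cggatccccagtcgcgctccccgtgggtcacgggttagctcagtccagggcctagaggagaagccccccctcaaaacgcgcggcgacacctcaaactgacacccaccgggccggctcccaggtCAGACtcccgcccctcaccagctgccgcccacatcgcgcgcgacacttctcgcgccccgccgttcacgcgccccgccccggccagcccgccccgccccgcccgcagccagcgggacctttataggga

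FSTL3 was the only 1 of 8 members with these letters in the window. They were in 39.0% of 19556 protein-coding genes, which were taken whether or not their model had a 5′ untranslated part. The model of FST has 1037 bases of merged exons and 1032 of coding sequence, so its window lies close to the coding start. MSTN and ACVR1B, whose RefSeq models have no 5′ untranslated part, were not searched. A match of 5 letters is a description of the sequence and not a binding site.

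The log2FC values of the 4 receptors lay between -0.11 and 0.10. ACVR2B (ENSSSCG00000011257, chr13:23237699-23276086, plus strand) and ACVR2A (ENSSSCG00000015669, chr15:4177333-4259056, minus strand) encode the type II receptors that bind myostatin and activins first. ACVR2B had 14.4, 19.5 and 28.4 CPM in high IMF and 12.4, 18.7 and 28.4 CPM in low IMF pigs. The top pig of each group, 1 and 8, reached the same level, and pig 12 was again the lowest. The log2FC of ACVR2B was -0.00 (SE 0.21, 95% interval -0.45 to 0.44, edgeR adjusted p = 0.997, exact permutation p = 0.900). ACVR2A had 14.1, 16.2 and 20.3 CPM in high IMF and 13.5, 16.02 and 17.1 CPM in low IMF pigs. High IMF pigs 3 and 4, the same pigs that led MSTN, were above all low IMF pigs, and the other pigs were mixed. The log2FC of ACVR2A was -0.11 (SE 0.11, 95% interval -0.35 to 0.12, edgeR adjusted p = 0.748, exact permutation p = 0.331).

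ACVR1B (ENSSSCG00000000233, chr5:17314322-17350726, plus strand) encodes ALK4, the type I receptor that passes activin and myostatin signals to SMAD2 and SMAD3. It had 8.62, 10.4 and 11.9 CPM in high IMF and 8.13, 10.6 and 14.8 CPM in low IMF pigs, with low IMF pigs 8 and 12 at the top and bottom. The log2FC was 0.10 (SE 0.13, 95% interval -0.19 to 0.38, edgeR adjusted p = 0.839, exact permutation p = 0.595). ACVR1 (ENSSSCG00000015874, chr15:64749478-64891653, minus strand) encodes ALK2, a type I receptor best known for bone morphogenetic protein signals through other SMADs. It had 13.9, 14.8 and 18.6 CPM in high IMF and 11.08, 16.3 and 20.1 CPM in low IMF pigs. The low IMF pigs were spread more widely and took both ends. The log2FC of ACVR1 was 0.09 (SE 0.14, 95% interval -0.22 to 0.39, edgeR adjusted p = 0.872, exact permutation p = 0.669).

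SMAD2 and SMAD3 carry the same signal, but their transcripts behaved differently over the pigs. SMAD2 (ENSSSCG00000004505, chr1:97415360-97511388, minus strand) had 14.2, 17.8 and 19.9 CPM in high IMF and 15.7, 17.0 and 18.2 CPM in low IMF pigs. All low IMF pigs lay inside the high IMF range. The log2FC was -0.03 (SE 0.10, 95% interval -0.24 to 0.17, edgeR adjusted p = 0.934, exact permutation p = 0.766), the narrowest interval among the members.

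SMAD3 (ENSSSCG00000004952, chr1:164998457-165124455, plus strand) was at 39.8, 61.8, 33.6, 41.2, 34.5 and 33.8 CPM in high IMF pigs 1 to 6. In low IMF pigs 7 to 12 it was at 50.9, 61.0, 64.998, 46.6, 34.9 and 73.5 CPM. Of the high IMF pigs only pig 2 was above 41.2 CPM, and of the low IMF pigs only pig 11 was below 46.6 CPM, so that these 2 pigs made the groups overlap. The mean was 40.8 ± 10.8 CPM (SD, n = 6) in high IMF and 55.3 ± 13.9 CPM (SD, n = 6) in low IMF pigs, a fitted fold of 1.36 (log2FC 0.44, SE 0.19, 95% interval 0.03 to 0.85). The unadjusted p of edgeR was 0.0381 and its adjusted p 0.452, the exact two-sided permutation test gave p = 0.0671, and the adjusted p by the Wald test of DESeq2 was 0.330. The difference therefore did not pass the threshold of the study. Leaving out pig 2 raised the log2FC to 0.60 (edgeR adjusted p = 0.206), and leaving out pig 12 lowered it to 0.35.

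Within each pig, the log2 ratio of SMAD2 to SMAD3 counts was -1.19 ± 0.28 (SD, n = 6) in high IMF and -1.66 ± 0.45 (SD, n = 6) in low IMF pigs. The lowest ratio was in pig 12 and the highest in pig 3, and 3 low IMF pigs lay below every high IMF pig while the others overlapped. The difference of -0.46 is nearly that of SMAD3 alone. The ratio of the type II receptors, ACVR2B over ACVR2A, differed by 0.08 on the log2 scale between the groups. It was -0.04 without pig 8. The ratio of inhibitor to ligand differed by 0.24 for FST over MSTN, and by 0.01 without pig 12. For FSTL3 over MSTN the difference was 0.15, and it was -0.06 without pig 12, -0.03 without pig 4 and -0.01 without pig 3. None of the 4 ratios separated the groups.

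Levels of different genes can be set side by side only per length. Per kilobase of merged RefSeq exons the mean over 12 pigs was 51.2 CPM for FSTL1, 29.7 for MSTN, 10.2 for ACVR2A, 8.01 for SMAD3 and 4.21 for FSTL3. ACVR1 followed at 2.94, ACVR1B at 1.78, FST at 1.68, ACVR2B at 1.65 and SMAD2 at 1.63 CPM per kilobase. Every neighbouring pair in this order overlapped in its range over the 12 pigs. Per kilobase of coding sequence the order became FSTL1 (215), SMAD3 (37.6), MSTN (29.7), SMAD2 (12.3), ACVR2B (12.2), ACVR2A (10.6), FSTL3 (9.69), ACVR1 (9.18), ACVR1B (6.92) and FST (1.69 CPM per kilobase). The RefSeq models of MSTN, FST and ACVR2A hold almost no untranslated sequence, which raises their merged-exon levels beside the others. FSTL1 was first and MSTN within the first 3 by both lengths. By coding length FSTL1 and FST, at the top and the bottom, did not overlap in range with their neighbours, and the other neighbouring pairs did.

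Over the 45 pairs of members, correlations of log2 CPM over the 12 pigs with group means removed had a median of 0.12, with 27 above 0. The highest were MSTN with ACVR1B (Pearson r = 0.82), FST with ACVR1 (0.65) and MSTN with ACVR2A (0.61). MSTN with ACVR2B was close behind (0.59), so that the ligand varied with 3 of the 4 receptors, while it had little in common with ACVR1 (0.15). The lowest were FSTL3 with SMAD2 (-0.55), FSTL1 with ACVR2B (-0.52) and FSTL1 with SMAD2 (-0.46). Pig 12 was lowest of all pigs for MSTN, ACVR2A, ACVR2B and ACVR1B and highest for SMAD3. Without this pig, an alternative chosen after seeing the data, MSTN had correlations of 0.70 with ACVR1B, 0.51 with ACVR2A and 0.34 with ACVR2B, and FST one of 0.71 with ACVR1. By Spearman over all 12 pigs MSTN with ACVR1B was at 0.79, MSTN with ACVR2A at 0.55 and FST with ACVR1 at 0.37. Pig 10 was the lowest pig for both FST and ACVR1. Values from the same library share its depth and tissue make-up, and these correlations are descriptions with no test.

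The gene most like MSTN by the same measure, out of 11836 genes compared, was SIRT1 (Pearson r = 0.95 with group means removed, 0.92 after leaving out the 2 pigs farthest from the median), a deacetylase that uses NAD. FBXL20 (0.90), EYA1 (0.90), RAB33B (0.89) and TRO (0.88) followed. After leaving out those 2 pigs RAB33B was at 0.92, FBXL20 at 0.76, EYA1 at 0.65 and TRO at 0.59. SIRT1 ran from 12.6 to 22.7 CPM over the pigs and had a log2FC of 0.02. Of the other members, FST was most like DCAF7 (0.88), FSTL1 most like MFRP (0.95), FSTL3 most like SBNO2 (0.93) and ACVR1 most like NADSYN1 (0.93). ACVR2A was most like LSM14A (0.90), ACVR2B most like TMEM238 (0.93) and ACVR1B most like CCN1 (0.92). With group means kept, ACVR1B with CCN1 (log2FC -1.15) was at 0.41 and FST with DCAF7 (log2FC 0.22) at 0.55. SMAD2 was most like KAT7 (0.91) and SMAD3 most like BCR (0.93). These are the highest of many correlations over 12 pigs.

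The wider pathway was followed in 49 further genes, of which 47 had an ID and 44 were tested. By the edgeR test 0 were called, and 4 (9.09%) had an unadjusted p at or under 0.05, against the 10.4% of all genes. Of these, FSTL4 and PMEPA1 had higher estimates in low IMF pigs, and INHBB and CCN2 in high IMF pigs. TDGF1 and FKBP1A had no ID, INHBE had no counts, and INHA and FSTL5 had too few to be tested. The median log2FC was -0.02. By role, 1 of 6 ligands, 1 of 11 processing and binding genes, 0 of 9 receptors and co-receptors, 0 of 14 SMADs and regulators and 2 of 4 genes that respond to SMAD2 and SMAD3 were at that p.

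**Figure D3:**
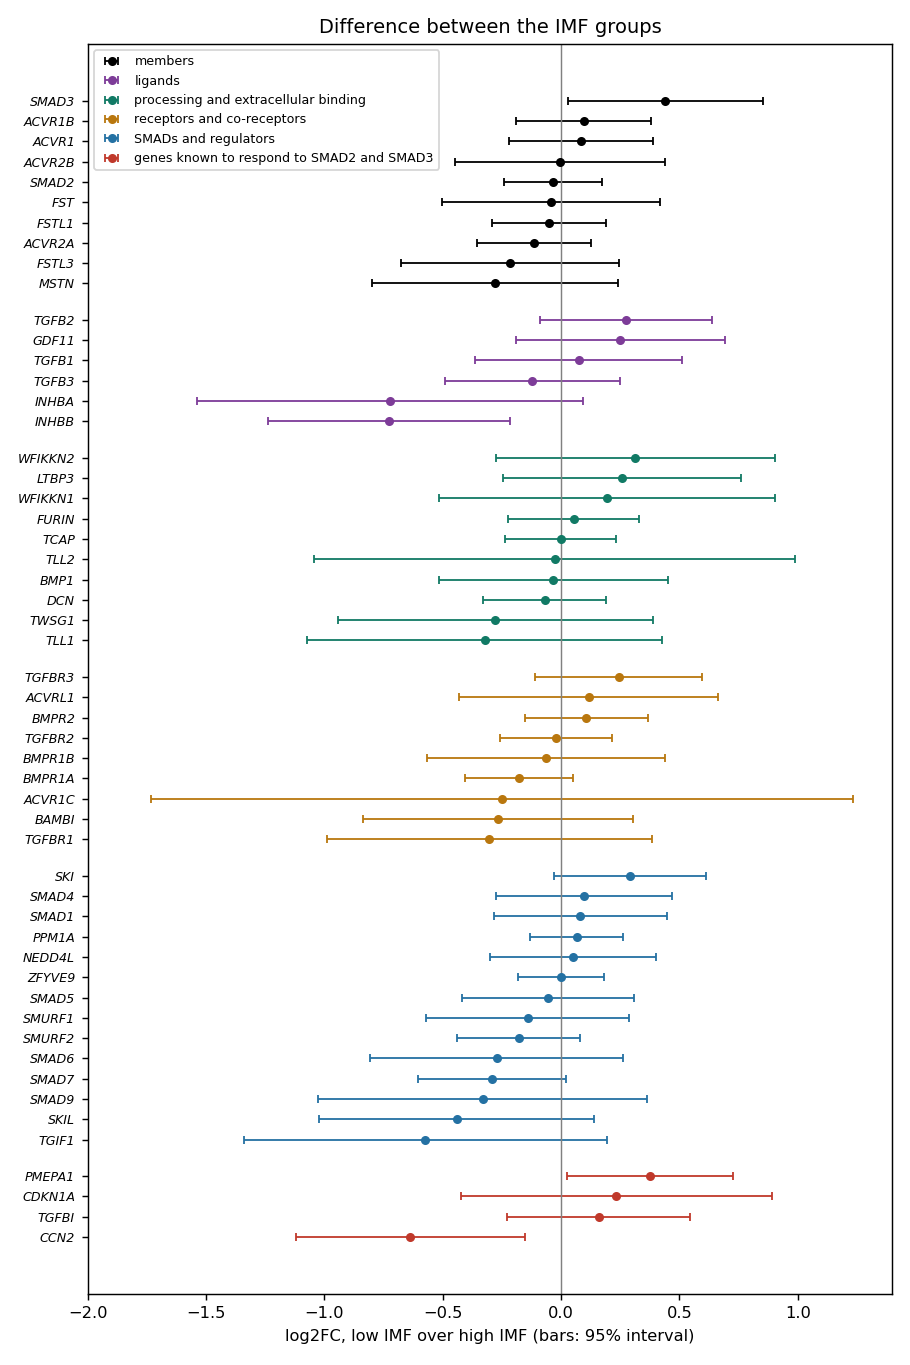
Log2FC of low over high IMF (horizontal axis) of the 10 members and the tested genes of the wider pathway, in 6 blocks from members to responding genes. Points are edgeR estimates and bars their 95% intervals, and FSTL4, with 5 pigs at 0 counts, is not drawn. SMAD3 is the only member whose bar (0.03 to 0.85) lies to the right of 0, and INHBB, PMEPA1 and CCN2 are the other genes whose bars miss 0.

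INHBB encodes the beta B subunit of activin B, a ligand of the same receptors. Its lowest, median and highest values were 0.853, 1.66 and 2.01 CPM in high IMF and 0.633, 0.865 and 1.26 CPM in low IMF pigs. All high IMF pigs but pig 2 were above all low IMF pigs. The log2FC was -0.73 (SE 0.24, edgeR p = 0.00862, adjusted p = 0.420, exact permutation p = 0.0195), and its adjusted p by the Wald test of DESeq2 was 0.155. FSTL4, a follistatin-like gene, had 28 counts over the 6 high IMF pigs and 428 over the 6 low IMF pigs, with 4 high IMF pigs and 1 low IMF pig at 0. Pig 9 held 154 of the low IMF counts. The edgeR test gave p = 0.00588 and adjusted p = 0.419, and the exact permutation test p = 0.0346.

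The estimates of the 2 responding genes lay on both sides of 0. PMEPA1, a membrane protein that limits SMAD signalling and is induced by it, had 8.68, 9.06 and 15.3 CPM in high IMF and 11.14, 13.4 and 17.5 CPM in low IMF pigs (log2FC 0.37, SE 0.16, edgeR p = 0.0378, adjusted p = 0.452, exact permutation p = 0.0433). Pig 2 was again the high IMF pig above the rest of its group and pig 12 the highest of all, as for SMAD3. With group means removed the correlation of PMEPA1 with SMAD3 was 0.77, the fourth highest of 440 pairs of a member and a pathway gene. It was singled out after its values were seen. Pigs 2 and 12 were the highest of their groups in both genes, so this correlation leans on those pigs.

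CCN2, connective tissue growth factor, had 26.6, 56.7 and 69.5 CPM in high IMF and 20.6, 33.2 and 45.2 CPM in low IMF pigs (log2FC -0.64, SE 0.22, edgeR p = 0.0135, adjusted p = 0.427, exact permutation p = 0.0455). CCN2 also answers to stress in many tissues. The summed CPM of 8 immediate early genes was 794 to 1848 in high IMF and 572 to 1220 in low IMF pigs (exact permutation p = 0.0498, 1 of the 8, JUNB, at 0 in every pig). The part of this difference in CCN2 was not tested.

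**Figure D4:**
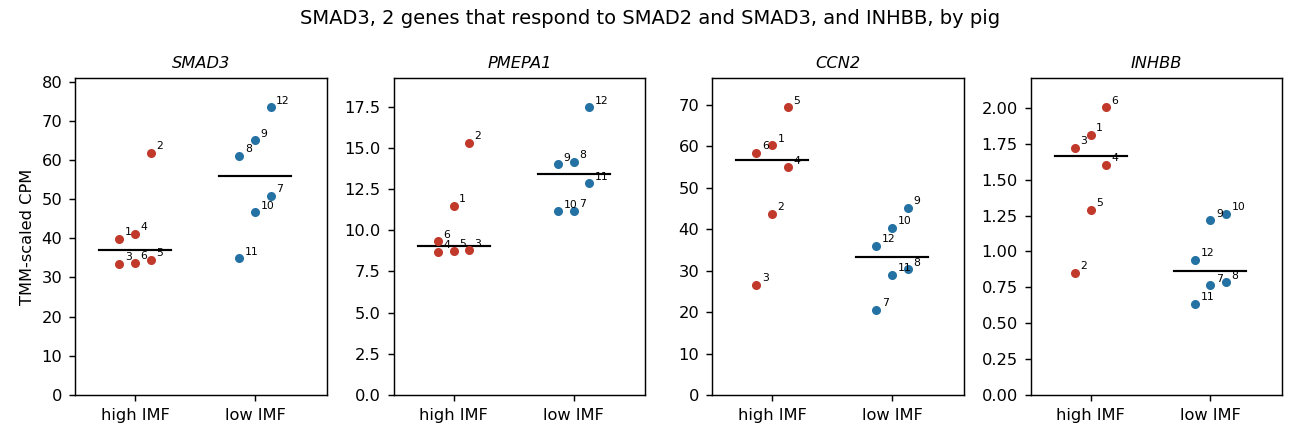
TMM-scaled CPM (vertical axis) of SMAD3, of the responding genes PMEPA1 and CCN2, and of the ligand gene INHBB in each pig, high IMF in red and low IMF in blue, with pig numbers and black lines at group medians. SMAD3 and PMEPA1 share pig 12 as the highest and pig 2 as the highest of its group, and in INHBB every high IMF pig but pig 2 lies above the low IMF pigs.

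Of 5 responding genes and regulators searched in the same way, SKIL held CAGAC at 2 places, PMEPA1 and TGFBI at 1 place each, and SMAD7 and CDKN1A at none. The 250 bases before the RefSeq start follow for SMAD7, an inhibitory SMAD known to be induced by SMAD3, and for PMEPA1. Capitals mark CAGAC on either strand in PMEPA1, and in SMAD7 the palindrome GTCTAGAC, which holds no CAGAC and reads the same on both strands. The windows are chr1:98543925-98544174 (minus strand) and chr17:58054330-58054579 (minus strand) of Sscrofa11.1.

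SMAD7: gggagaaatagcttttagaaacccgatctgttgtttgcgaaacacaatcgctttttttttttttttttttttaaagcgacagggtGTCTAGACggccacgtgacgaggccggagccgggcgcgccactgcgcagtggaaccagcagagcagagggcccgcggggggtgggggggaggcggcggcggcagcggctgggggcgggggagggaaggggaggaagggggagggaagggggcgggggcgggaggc

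PMEPA1: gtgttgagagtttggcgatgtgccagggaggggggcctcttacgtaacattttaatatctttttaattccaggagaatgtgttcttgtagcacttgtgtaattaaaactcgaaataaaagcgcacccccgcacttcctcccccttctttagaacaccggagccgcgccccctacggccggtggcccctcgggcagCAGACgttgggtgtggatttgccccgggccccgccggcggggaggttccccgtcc

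The palindrome was in 0.164% of the same 19556 genes (32 genes) and in none of the 8 members searched. SMAD7 itself had 4.08, 5.00 and 6.64 CPM in high IMF and 3.26, 4.33 and 5.11 CPM in low IMF pigs (log2FC -0.29, SE 0.14, edgeR adjusted p = 0.498).

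Per kilobase the most abundant genes of their roles were TGFB2 among ligands (3.20 CPM per kilobase of merged exons, log2FC 0.27, edgeR adjusted p = 0.595) and TCAP, a protein of the sarcomere that binds myostatin, among binding genes (773, log2FC -0.00, edgeR adjusted p = 0.997). They were BMPR2 among receptors (63.1, log2FC 0.11, edgeR adjusted p = 0.791) and the phosphatase gene PPM1A among SMADs and regulators (21.8, log2FC 0.07, edgeR adjusted p = 0.835). The model of BMPR2 holds almost no untranslated sequence, which raises its merged-exon level beside the other receptors. By coding length BMPR2 still led, at 63.4 CPM per kilobase, with BMPR1A next at 49.8. By CPM alone SMAD4, the partner of SMAD2 and SMAD3, led the SMADs and regulators, with a log2FC of 0.10 (SE 0.17, edgeR adjusted p = 0.885). Among the responding genes CCN2, given above, led by CPM, but it has no length here. TGFBI led by merged exons, with 5.96 CPM per kilobase (log2FC 0.16, edgeR adjusted p = 0.792). By coding length PMEPA1 led with 11.8 CPM per kilobase, above CDKN1A (8.90) and TGFBI (7.90).

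In the RefSeq annotation 5 of the 10 members overlap a gene on the other strand. C15H2orf88 overlaps MSTN by 158 bases, AAGAB overlaps SMAD3 by 1450 bases and PRSS57 overlaps FSTL3 by 973 bases, while FSTL1 and ACVR1 overlap long noncoding genes. How the counting treated strand is not given in the sources used here, so reads of these stretches may be shared.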

How the data were processed

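RNA was sequenced from Semimembranosus muscle of 12 pigs (6 high IMF, 6 low IMF) as stranded mRNA libraries with paired reads. Per the methods of the study, the authors trimmed reads with Trimmomatic, aligned them with HISAT2 to Sscrofa11.1 and ran StringTie for known transcripts before counting by HTSeq. The authors deposited whole-number counts per Ensembl gene and pig, not normalized. The annotation release and the handling of multiply aligned reads are not given in the sources used here.

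Groups came from the sample labels. Symbols were matched to Ensembl IDs by a gene name table (14857 of 25880 genes had one), and positions, lengths and sequences came from the RefSeq annotation of Sscrofa11.1 by symbol. Genes kept by filterByExpr were scaled by TMM and compared with edgeR 4.0.16 (R 4.3.3, quasi-likelihood, IMF group as sole factor, residual degrees of freedom 10, prior degrees of freedom 3.54 as the median), with Benjamini-Hochberg adjustment over 14262 genes. Log2 CPM used a prior count of 2. The test was tested on simulated data. Alternatives were DESeq2 1.42.0 (size factors, Wald test), limma-voom (limma 3.58.1), other filters and normalizations, labelled sex or age as a covariate, and pigs left out. Totals of 131048805 to 178013997 counts make counting error small beside the spread between pigs.

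Text names all members, pathway genes whose unadjusted p was 0.05 or less, the most abundant gene of each role, the genes most like each member (5 for MSTN) and the 3 most and least correlated pairs. Members and lists were chosen with earlier results of these data known. The pigs were unrelated animals, and the p-values judge a difference between the groups against the spread between pigs. 1 gene of the pathway list is not reported here and was left out of its counts.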

Additional observations from a re-analysis of the deposited data

Results flagged for a closer look

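In each IMF group the highest and the lowest pig of every member were compared with the others by the gap to the nearest pig over the whole range. Of 20 groups looked at, 2 held a pig beyond the 95% critical value, and chance flags about 1 in 20 groups. Both were high IMF pig 2. It had 18.6 CPM of ACVR1, the other high IMF pigs having 13.9 to 15.5 CPM, and 61.8 CPM of SMAD3, the other high IMF pigs having 33.6 to 41.2 CPM. Leaving out this pig, the log2FC of SMAD3 was 0.60 with an edgeR adjusted p of 0.206.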

How the results depend on the processing

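The 10 members and 44 pathway genes gave 0 calls under all 23 alternatives. Over all genes the count of 0 called by edgeR became 57 by the Wald test of DESeq2 over the tested genes and 64 over every gene with a count, and ranged from 0 to 1 when each pig was left out (1 without pig 5 and 1 without pig 10). MSTN, FSTL3, ACVR2A and SMAD3 kept the sign of their log2FC under every alternative, MSTN between -0.53 and -0.12 and SMAD3 between 0.31 and 0.60 with adjusted p-values from 0.206 to 0.998. FST, FSTL1, ACVR1, ACVR2B, ACVR1B and SMAD2, all near 0, changed sign under some alternative. ACVR2B was 0.00039 with DESeq2's size factors, 0.00040 and 0.00079 by the Wald test in those 2 gene sets, 0.0060 with labelled sex and 0.0050 with age as a covariate. Without the pigs whose Y counts went against the label (4 high and 2 low IMF pigs left), FST was 0.075, ACVR1 -0.047, ACVR1B -0.15, ACVR2B -0.42 and FSTL3 -0.53. With each pig left out the log2FC ran from -0.15 to 0.086 for FST, -0.11 to 0.0072 for FSTL1, -0.13 to 0.12 for ACVR2B, -0.0015 to 0.18 for ACVR1B and -0.087 to 0.0063 for SMAD2, and from -0.31 to -0.081 for FSTL3. The cause of these changes was not tested. The log2 ratio of FST over MSTN moved from 0.24 to 0.76 without the Y-mismatched pigs and to 0.014 without pig 12. No paired analysis was possible because no label pairs high IMF pigs with low IMF pigs. For the members depth is the lesser limit. The 6 pigs per group leave intervals that for MSTN allow a log2FC of -0.80 and for SMAD3 one of 0.85.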

Other observations

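Among markers of cell types, with group means removed over 12 pigs and as descriptions only, 3 members ran against the summed level of 4 endothelial markers: ACVR2B (Pearson r = -0.73), FSTL3 (-0.72) and ACVR1B (-0.71). The endothelial sum was 92.0 to 123 CPM in high IMF and 95.3 to 159 CPM in low IMF pigs. FSTL3 varied with the summed level of 5 macrophage markers (0.59) and SMAD2 against it (-0.69), and this sum was 46.4 to 102 CPM in high IMF and 56.0 to 95.5 CPM in low IMF pigs. MSTN had Pearson values of 0.14 with muscle fibre and -0.41 with endothelial markers (Spearman -0.60), the latter its largest in size over the cell type lists. SMAD3 had Pearson values of -0.45 with satellite cell markers (Spearman -0.39) and 0.41 with the stromal sum (Spearman 0.63), which was mostly COL3A1. With the summed immediate early genes ACVR1B had the highest Pearson value of the members (0.63, Spearman 0.62) and FSTL1 the lowest (-0.50). Markers of satellite cells, the stem cells of muscle, summed to 4.69 to 8.75 CPM in high IMF and 4.30 to 9.34 CPM in low IMF pigs.

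Between the members and the 44 tested pathway genes, chosen after their values were seen, the 3 highest of 440 correlations were MSTN with the type I receptor gene BMPR1B (0.85), FSTL3 with the protease gene BMP1 (0.80) and ACVR2A with BMPR1A (0.78). The lowest were ACVR2A with the co-receptor gene TGFBR3 (-0.80) and ACVR2B with BAMBI (-0.79), a decoy receptor.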
